A study of Sus scrofa with 6 samples.

Results

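IDH2, IDH3B, DLD, ECHS1 and ALDOA are 5 enzymes of central energy metabolism, and they were examined among the 14900 mRNAs measured in white and black skin of Bama pigs. They were taken as the mRNAs that bear these symbols in the study's lists, and they were picked with the difference between white and black skin already known. Their levels in the 2 skins are therefore given as a description with no test. Skin was taken to a depth of 8 mm from 3 unrelated adult female Bama pigs (Sus scrofa) aged 2 years, a Chinese miniature breed that is black at both ends of the body and white between. Each pig gave a piece of white skin from the back and a piece of black skin from the buttock, so there were 3 white and 3 black samples. Polyadenylated RNA was sequenced, and levels are given as FPKM, fragment counts scaled to transcript length and library size. Skin color and body site differed together in every pig and cannot be told apart. In whole skin, fewer cells of a type and less RNA per cell cannot be told apart either.

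The TCA cycle burns acetyl-CoA in the mitochondrial matrix and hands the electrons to the respiratory chain, and it is fed by pyruvate from glycolysis and by acetyl-CoA from the beta-oxidation of fatty acids. Isocitrate dehydrogenases carry out an oxidative decarboxylation of the cycle, DLD is the dihydrolipoamide dehydrogenase shared by several large dehydrogenase complexes, ECHS1 hydrates short-chain enoyl-CoA in beta-oxidation and valine breakdown, and ALDOA is the aldolase that splits fructose bisphosphate in glycolysis. In skin, the epidermis is known for making much of its ATP by glycolysis, while sebaceous glands, smooth muscle of vessels and hair erector muscles, and fat cells each carry lipid or energy metabolism of their own.

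A few facts of the libraries touch every result. The summed FPKM of all mRNAs lay between 408598 and 501424 in the 6 samples, and the median log2 difference of all mRNAs was -0.31 (white minus black). White skin of pig 2 stood apart in some skin markers. Its 7 measured keratinocyte markers were the lowest of the 3 white samples in 7 of 7 genes, against 37.8% of all mRNAs, and KRT1, a keratin of the upper epidermis, was at 39.5 FPKM there and at 433 and 504 FPKM in white skin of pigs 1 and 3. The gap was not wide for every marker. TP63 was at 14.13 FPKM there and at 14.16 FPKM in white skin of pig 1. Counts of called genes without this sample are given beside the lists.

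All 5 enzymes had more mRNA in white than in black skin, by 2.04-fold for ECHS1 to 2.86-fold for IDH2 on the means of FPKM. In all 5 the white samples lay above the black ones without overlap, as in 9.62% of all mRNAs. They were abundant mRNAs in both skins, with ALDOA far above the other 4 per length of transcript. In every sample the 5 lay at or above the 94.2 percentile of all mRNAs in white skin and the 87.5 percentile in black skin.

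IDH2 (ENSSSCG00000001852, chr7:55654298-55675571 in Sscrofa11.1) encodes the mitochondrial isocitrate dehydrogenase that makes NADPH. Its level was 91.4, 133 and 89.3 FPKM in white skin of pigs 1, 2 and 3, and 38.4, 30.8 and 40.7 FPKM in black skin of the same pigs. The 3 white samples all lay above the 3 black ones, white skin of pig 2 was the highest, and black skin of pig 2 was the lowest. The mean was 104.7 ± 24.9 FPKM in white and 36.6 ± 5.16 FPKM in black skin (SD, n = 3 each), a log2 difference of 1.49 (SE 0.24) on the scale of log2(FPKM + 0.5). Within pigs 1, 2 and 3 white skin held 2.38, 4.33 and 2.20 times the level of black skin.

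IDH3B (ENSSSCG00000007173, chr17:32955061-32960110) encodes the beta subunit of the NAD-dependent isocitrate dehydrogenase of the TCA cycle. White skin held 62.3, 86.2 and 58.2 FPKM in pigs 1, 2 and 3, and black skin held 29.97, 29.6 and 34.5 FPKM. Again no black sample reached the lowest white one, and the spread was wider in white than in black skin. The means were 68.9 ± 15.1 and 31.4 ± 2.69 FPKM (SD, n = 3 each), a ratio of 2.20 and a log2 difference of 1.11 (SE 0.22).

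DLD (ENSSSCG00000015443, chr9:107642129-107668443) was the member with the least spread. Its level was 73.2, 86.7 and 77.6 FPKM in white skin and 35.2, 31.7 and 37.0 FPKM in black skin of pigs 1, 2 and 3. The groups did not overlap, and the lowest white sample was at 1.98 times the highest black one. The means were 79.2 ± 6.89 and 34.6 ± 2.67 FPKM (SD, n = 3 each), a ratio of 2.29 and a log2 difference of 1.18 (SE 0.19).

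ECHS1 (ENSSSCG00000038086, chr14:141340320-141348870) had the smallest difference of the 5. White skin of pigs 1, 2 and 3 was at 97.2, 133 and 96.3 FPKM, and black skin was at 48.7, 52.5 and 58.5 FPKM. White samples lay above black ones without overlap, and black skin of pig 1, not pig 2, was the lowest. The means were 108.7 ± 20.7 and 53.2 ± 4.95 FPKM (SD, n = 3 each), with a log2 difference of 1.01 (SE 0.21), just above the threshold of 1 used for calls.

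ALDOA (ENSSSCG00000032556, chr3:18246036-18260167) was the highest of the 5 in all 6 samples. It was at 756, 931 and 568 FPKM in white skin and at 269.9, 266.6 and 372.7 FPKM in black skin of pigs 1, 2 and 3. Pig 3 had the lowest white and the highest black level, and the groups still did not overlap. The means were 752 ± 182 and 303 ± 60.3 FPKM (SD, n = 3 each), a ratio of 2.48 and a log2 difference of 1.30 (SE 0.26). Within pigs the ratio ran from 1.52 in pig 3 to 3.49 in pig 2.

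**Figure D1:**
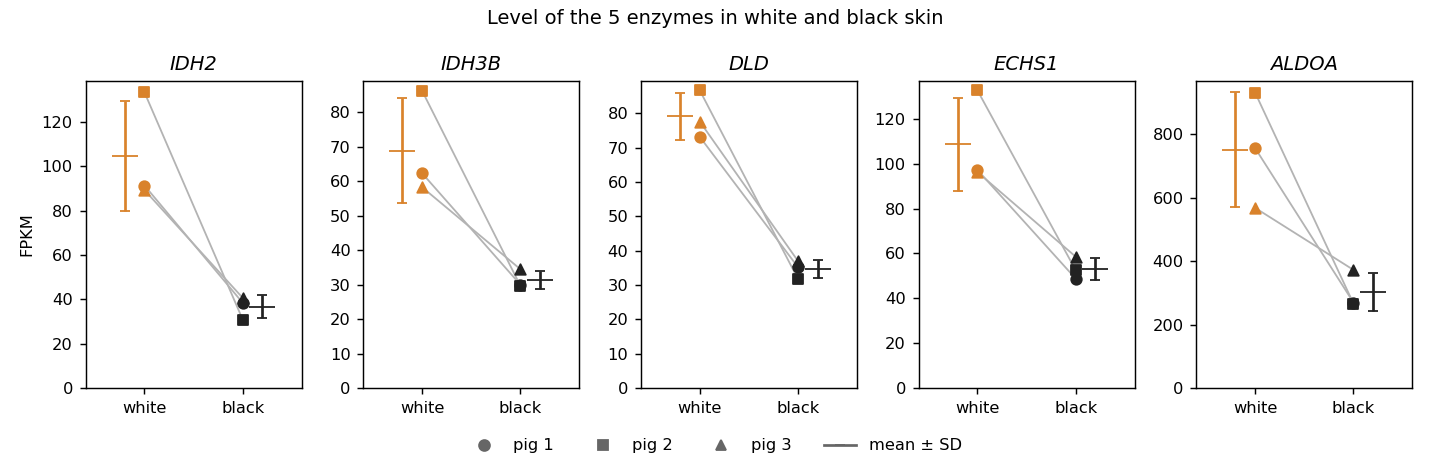
Level in FPKM (vertical axes from 0, one panel per gene) of IDH2, IDH3B, DLD, ECHS1 and ALDOA in white and black skin. Symbols mark pigs 1, 2 and 3, grey lines join the 2 skins of a pig, and the bars give mean ± SD (n = 3). All 15 lines fall from white to black, and white skin of pig 2 is the highest point of every panel.

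In white skin the order of mean FPKM was ALDOA, ECHS1, IDH2, DLD and IDH3B. ECHS1 and IDH2 did not differ beyond their spread there, with IDH2 the higher of the pair in white skin of pig 2. The ranges of DLD and IDH3B overlapped too, though within every white and every black sample DLD was the higher of that pair. In black skin the order was ALDOA, ECHS1, IDH2, DLD and IDH3B again, and IDH2, DLD and IDH3B overlapped.

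All 5 members passed both thresholds for a higher level in white skin, which were a limma p below 0.05 after Benjamini-Hochberg adjustment over all mRNAs and a log2 difference beyond 1 in size. Of all mRNAs, 6.24% were called in either direction, 2.62% higher in white skin (391 of 14900) and 3.62% lower (539). The split was 571 higher and 281 lower with upper-quartile scaling and 483 and 217 with quantile normalization. The members were picked from this very contrast, so their count is no result. Ranked by log2 difference, IDH2 was number 350 of 14900 mRNAs, ALDOA 445, DLD 514, IDH3B 594 and ECHS1 704, so many mRNAs differed more. Relative to the median of all mRNAs the 5 stood 1.32 to 1.79 log2 units higher.

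In the limma fit that blocked on the pig, 4 of the 5 members were called, against 3.23% of all mRNAs called higher. ALDOA was the exception there, at an adjusted p of 0.0512. Without white skin of pig 2 the log2 differences were 1.30 for IDH2, 1.13 for ALDOA, 1.11 for DLD, 0.93 for IDH3B and 0.86 for ECHS1. Then 0 of the 5 members and 35 of all mRNAs were called. Without white skin of pig 1, black skin of pig 2 or black skin of pig 3, 0 members were called as well, and the count was 2 without black skin of pig 1 and 3 without white skin of pig 3.

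Within each skin the 5 genes shared most of their extremes, a description that rests on 3 samples per skin. White skin of pig 2 was the highest of the white samples for 5 of 5 members, against 26.9% of all mRNAs. Black skin of pig 2 was the lowest of the black samples for 4 of 5, ECHS1 being the exception, against 31.8% of all mRNAs. For IDH3B the margin was small, at 29.6 FPKM in pig 2 and 29.97 FPKM in pig 1. The ratio of white to black was largest in pig 2 for all 5 and smallest in pig 3 for 4 of them, DLD being the exception. Pearson's r between any 2 members over the 6 samples was 0.955 to 0.997, a description in which the points fall into 2 groups by skin and share their libraries. The coefficient of variation ran from 8.71% to 24.1% among white and from 7.72% to 19.9% among black samples. The median over the 2834 mRNAs with a mean of at least 20 FPKM was 19.3% in white and 22.2% in black skin.

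The other genes of the 3 pathways show how far the 5 stand for their pathways. Of the 53 other measured genes of the TCA cycle, mitochondrial beta-oxidation and glycolysis, 11 were called higher in white skin (20.8%) and 0 lower, with a median log2 difference of 0.51. At unadjusted p values below 0.05 the count of higher genes was 13. Without 1 sample it was 3 to 10 of 53, the lowest without white skin of pig 2. Beta-oxidation held 7 of the 11 called genes, the TCA cycle 3 and glycolysis 1. The lists were assembled with earlier results of these data known, so the counts are descriptions.

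In the TCA cycle, 3 of the 16 other measured genes were called higher and 0 lower, and the log2 difference was above 0 in 16 of 16, with a median of 0.55. MDH2, the malate dehydrogenase of mitochondria, rose from 35.3 ± 4.56 FPKM in black to 118 ± 43.4 FPKM in white skin (SD, n = 3 each), with a log2 difference of 1.68 (SE 0.29, adjusted p = 0.023 by limma). SDHC, a membrane anchor subunit of succinate dehydrogenase, and OGDHL, a brain-type relative of the oxoglutarate dehydrogenase OGDH, were the others and are named after their values were seen. OGDHL was at 7.73, 20.03 and 6.67 FPKM in white skin and at 0.281, 0.371 and 0.244 FPKM in black skin, while SDHC had a log2 difference of 1.99 (SE 0.47, adjusted p = 0.047). Most core enzymes of the cycle did not pass. SUCLG1, a subunit of succinyl-CoA ligase, was at 144 ± 17.3 FPKM in white and 96.2 ± 17.8 FPKM in black skin, with a log2 difference of 0.59. SDHA, the flavoprotein subunit of succinate dehydrogenase, had a log2 difference of 0.23. The count was 1 of 16 without white skin of pig 2.

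The partner subunits of IDH3B had smaller differences than IDH3B itself. IDH3A, the catalytic subunit, had a log2 difference of 0.22 (SE 0.22) and IDH3G, the gamma subunit, one of 0.35 (SE 0.29), and neither passed. The ratio of IDH3B to IDH3A within a sample was 5.16 to 6.45 in white and 2.95 to 3.44 in black skin. IDH3B to IDH3G was 4.73 to 5.08 in white and 2.01 to 3.53 in black skin. So the subunits of 1 enzyme did not keep the same proportion of mRNA in the 2 skins. Since IDH3B was picked for its difference, these ratios carry no test.

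Among the isocitrate dehydrogenases, the cytosolic IDH1 showed a larger difference than IDH2. IDH1 was at 278, 400 and 208 FPKM in white skin and at 75.03, 44.4 and 84.4 FPKM in black skin, with a log2 difference of 2.11 (SE 0.33, adjusted p = 0.018 by limma). The ratio of IDH2 to IDH1 was therefore lower in white skin, 0.329 to 0.431 against 0.482 to 0.695. IDH1 was the 1 gene called higher among the 12 enzymes of NADPH supply and the malate-aspartate shuttle, and 2 were called lower. PC, the pyruvate carboxylase that refills the cycle, was at 31.4 ± 3.91 FPKM in white and 124 ± 85.6 FPKM in black skin, a log2 difference of -1.76 with an adjusted p of 0.0498. ME3, a mitochondrial malic enzyme named after its values were seen, had a log2 difference of -1.29. With the pig as a block 3 of the 12 were called lower, with upper-quartile scaling, quantile normalization or any 1 sample left out 0 were, and IDH1 was not called without white skin of pig 1 or 2 or black skin of pig 2.

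DLD serves the pyruvate, oxoglutarate and branched-chain complexes. In the pyruvate and branched-chain complexes some subunits were called higher and others not. For the oxoglutarate complex OGDH and DLST did not pass, with log2 differences of 0.49 and 0.35, and only OGDHL, the relative of OGDH, was called. In the pyruvate dehydrogenase complex, 2 of the 4 other genes passed. PDHB, the beta subunit of the first enzyme, was at 44.7, 54.9 and 40.3 FPKM in white and at 17.4, 16.0 and 16.4 FPKM in black skin, a log2 difference of 1.45 (SE 0.21, adjusted p = 0.014). PDHX, which tethers DLD to the complex, had a log2 difference of 1.38 (SE 0.23, adjusted p = 0.02). PDHA1, the partner of PDHB, and DLAT, the acetyltransferase core, did not pass, with log2 differences of 0.32 and 0.10. None of the 4 was called without white skin of pig 2.

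Subunit proportions inside that complex differed in the same way. PDHB to PDHA1 was 0.855 to 1.17 in white and 0.343 to 0.589 in black skin, and PDHX to DLAT was 2.52 to 2.73 in white and 1.00 to 1.11 in black skin. Each ratio had an exact two-sided permutation p of 0.1, the smallest that 3 against 3 samples can give. The ratios of BCKDHB to BCKDHA, HADHB to HADHA and ETFB to ETFA overlapped, with exact permutation p values of 0.3, 0.2 and 0.5. SDHC to the iron-sulfur subunit of its enzyme did not overlap, at 1.34 to 1.58 in white and 0.227 to 0.977 in black skin. Neither did OGDHL to OGDH, at 0.209 to 0.360 in white and 0.0088 to 0.0129 in black skin. Both had an exact permutation p of 0.1, and SDHC and OGDHL were picked after their values were seen. DLD to DLAT was 9.31 to 11.8 in white and 4.46 to 5.71 in black skin. DLD to DLST, the succinyltransferase of the oxoglutarate complex, was 3.11 to 3.51 in white and 1.55 to 2.19 in black skin.

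In the other complexes that use DLD, among them the branched-chain and glycine complexes, 1 of the 5 other measured genes passed. BCKDHB, the beta subunit of the branched-chain dehydrogenase, was at 40.5 ± 13.1 FPKM in white and 10.5 ± 2.25 FPKM in black skin, a log2 difference of 1.87 (SE 0.29, adjusted p = 0.018). The count was 0 of 5 without white or without black skin of pig 2. With the pig as a block 2 were higher and 1, a gene of neither the branched-chain nor the glycine complex, was lower. DBT, the acyltransferase of the branched-chain complex, had a log2 difference of 0.57 and did not pass. DLD to DBT was 5.68 to 7.18 in white and 3.65 to 5.34 in black skin, so the groups did not overlap.

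**Figure D2:**
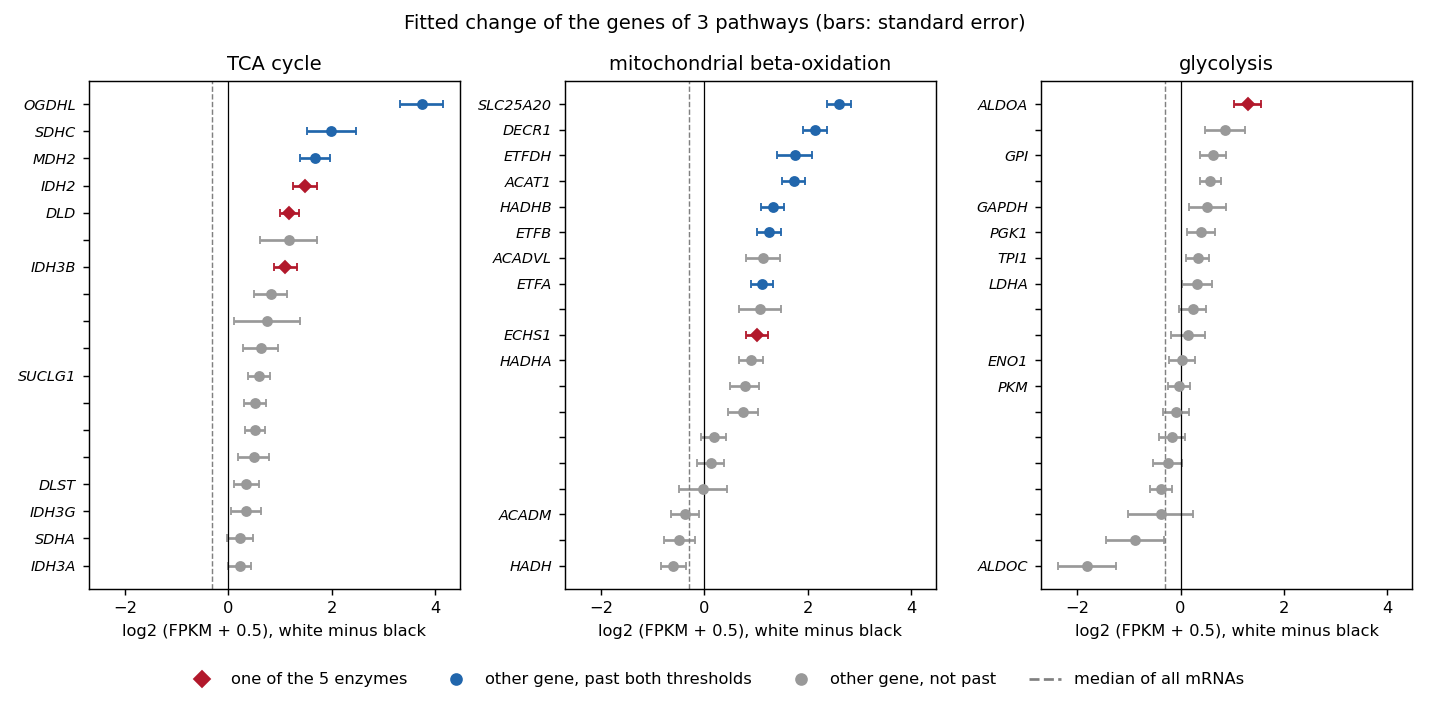
Fitted log2 difference of FPKM + 0.5 (horizontal axis, white minus black, bars are standard errors) of measured genes of the TCA cycle, mitochondrial beta-oxidation and glycolysis, with names for those given in the text and without 2 genes that are not reported. Red diamonds mark the members, blue points the other genes past both thresholds, and the dashed line the median of all mRNAs at -0.31. Beta-oxidation holds 7 blue points, the TCA cycle 3 and glycolysis 0.

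Of the 3 pathways, mitochondrial beta-oxidation had the largest share of called genes: 7 of 18 other genes were higher in white skin (38.9%) and 0 lower, with a median log2 difference of 0.99. SLC25A20, which carries acylcarnitines into the matrix, rose from 16.0, 16.9 and 22.9 FPKM in black to 105, 142 and 99.4 FPKM in white skin. ACAT1, a thiolase of ketone body and isoleucine metabolism, rose 3.36-fold, with a log2 difference of 1.72 (SE 0.22, adjusted p = 0.011). HADHB, the thiolase subunit of the trifunctional protein, rose 2.49-fold.

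The electron carriers of beta-oxidation were among them. ETFB, a subunit of the electron transfer flavoprotein, was at 159 ± 29.9 FPKM in white and 66.4 ± 11.5 FPKM in black skin. ETFDH, which passes its electrons to ubiquinone, rose 3.58-fold. ETFA and DECR1, an auxiliary reductase for unsaturated fatty acids, were named after their values were seen and had log2 differences of 1.12 and 2.14. ACADVL, the dehydrogenase for very long chains, had a log2 difference of 1.13 (SE 0.34) and did not pass, with an adjusted p of 0.079. Without white skin of pig 2, 2 of these 18 genes were called and the median was 0.77.

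Of the genes for the steps before and after ECHS1, ACADM and HADH had log2 differences below 0. HSD17B10, another dehydrogenase that can act after ECHS1, had one of 0.80, and none of these passed the test. The hydrolase that follows ECHS1 in valine breakdown was called higher, at a log2 difference of 1.602 (adjusted p = 0.015 by limma). It was picked after its values were seen. ACADM, the medium-chain acyl-CoA dehydrogenase, was at 19.7, 13.9 and 24.4 FPKM in white and at 26.3, 19.6 and 28.5 FPKM in black skin, lower in white skin of each pig. HADH, the short-chain hydroxyacyl-CoA dehydrogenase, had a log2 difference of -0.61 (SE 0.24). ECHS1 to ACADM was 3.95 to 9.52 in white and 1.85 to 2.68 in black skin. ECHS1 to HADH was 5.37 to 11.06 in white and 2.39 to 2.72 in black skin. Against HADHA, which holds the hydratase for longer chains, ECHS1 kept nearly the same ratio, 2.30 to 2.64 in white and 2.06 to 2.41 in black skin, and the groups overlapped.

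In glycolysis few genes besides ALDOA were called. Of the 19 other measured genes, 1 was called higher (5.26%) and 0 lower, and the median log2 difference was 0.14. With the pig as a block 1 was called lower, and without white skin of pig 2 neither direction held a call. The abundant enzymes did not pass. GAPDH, which works just after the aldolase, was at 1276 ± 528 FPKM in white and 837 ± 145 FPKM in black skin. GPI, the isomerase upstream of the aldolase, had a log2 difference of 0.62 and PGK1, phosphoglycerate kinase, one of 0.40. ENO1, PKM and LDHA, enzymes of the last steps, had values of 0.03, -0.02 and 0.32.

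ALDOA to GPI was 4.08 to 4.95 in white and 2.15 to 3.32 in black skin. ALDOA to TPI1, triose phosphate isomerase, was 5.51 to 8.30 in white and 2.59 to 5.44 in black skin, with a narrow gap between the groups. ALDOA to GAPDH overlapped, at 0.529 to 0.826 in white and 0.273 to 0.542 in black skin.

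ALDOC, the aldolase known from brain, stood on the other side of ALDOA and was named after its values were seen. It was at 4.78, 3.27 and 10.6 FPKM in white and at 15.6, 12.1 and 46.7 FPKM in black skin, a log2 difference of -1.81 (SE 0.56) that did not pass (adjusted p = 0.086 by limma). In the fit that blocked on the pig it did (adjusted p = 0.015). ALDOA made up 99.4%, 99.7% and 98.2% of the summed FPKM of ALDOA and ALDOC in white skin of pigs 1, 2 and 3, and 94.5%, 95.7% and 88.9% in black skin. The isoforms share sequence, and how reads common to both were counted was not given in the sources used here.

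**Figure D3:**
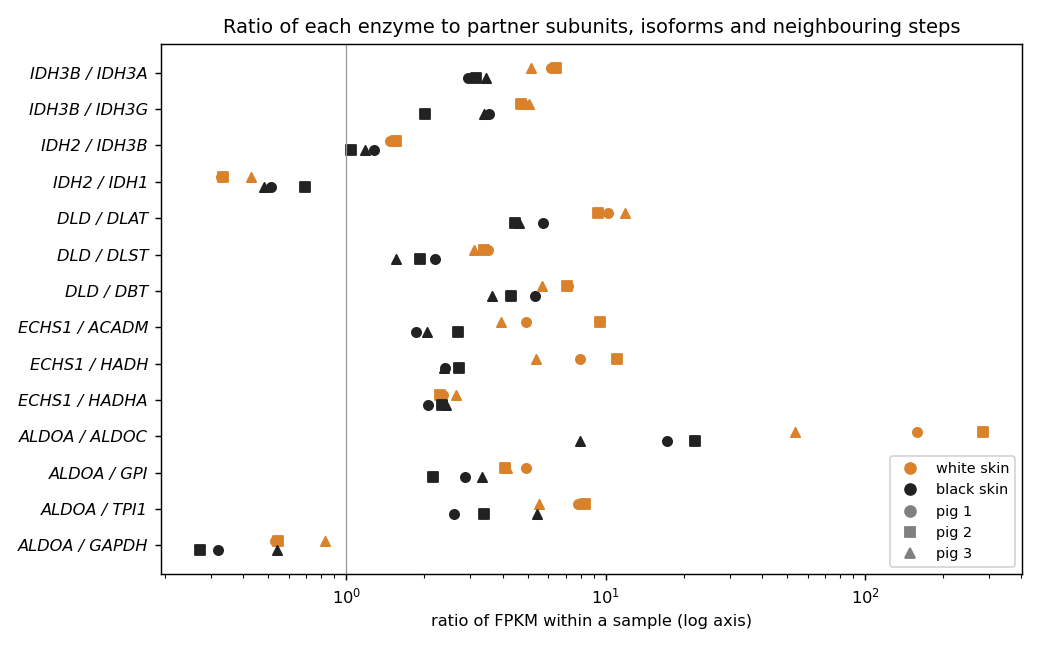
Ratio of FPKM within a sample (log axis) of each member to partner subunits, isoforms and neighbouring steps, with color for skin and symbol for pig. The white and black points are apart in 12 of the 14 ratios and overlap for ECHS1 to HADHA and ALDOA to GAPDH. Every ratio holds a member picked with its difference between the skins known, so this count is a description and carries no test.

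Oxidation of lipids and amino acids outside these 3 pathways held single genes with larger differences than the members. In peroxisomal beta-oxidation 3 of 6 measured genes were called higher in white skin and 0 lower, with a median log2 difference of 1.251, and 1 of 6 was called without white skin of pig 2. HSD17B4, a multifunctional enzyme of the pathway, was at 306, 390 and 201 FPKM in white and at 30.6, 22.5 and 59.2 FPKM in black skin. ECH1, a dienoyl-CoA isomerase, rose 3.78-fold.

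In the breakdown of branched-chain amino acids, which uses DLD and ECHS1, 7 of 18 other measured genes were called higher and 1 lower, with a median of 0.94. HIBADH, an enzyme of valine breakdown, rose 7.63-fold and PCCB, a subunit of propionyl-CoA carboxylase, rose 5.60-fold. BCAT2, the mitochondrial aminotransferase, rose 4.50-fold and ALDH6A1, a dehydrogenase of valine breakdown, rose 4.49-fold. BCAT1, the cytosolic aminotransferase, was the gene called lower, at 0.587 ± 0.225 FPKM in white and 2.46 ± 0.947 FPKM in black skin. With upper-quartile scaling or quantile normalization it was not called. Without white skin of pig 2, 0 of the 18 were called, and the median stayed at 0.92.

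Of 9 measured regulators of mitochondrial genes, 1 was called higher and 0 lower. ESRRA, a nuclear receptor that acts on genes of oxidative metabolism, was at 24.2, 28.8 and 21.7 FPKM in white and at 7.74, 9.36 and 12.0 FPKM in black skin, a log2 difference of 1.33 (SE 0.24, adjusted p = 0.026 by limma). PPARGC1B, one of its coactivators, had a log2 difference of 0.38 and TFAM, a transcription factor of mitochondrial DNA, one of 0.17, and both missed the thresholds. Over the 9 regulators the log2 differences ran from -0.98 to 1.33, with 5 above 0 and 4 below. None of the 9 was called without white skin of pig 2. Of 5 genes of the gluconeogenic bypass, 0 were called higher and 2 lower, namely PC and FBP2, the muscle-type fructose bisphosphatase, with a log2 difference of -1.75. With the pig as a block PCK1, the rate-setting carboxykinase of gluconeogenesis, was called too, at a log2 difference of -1.33, and with quantile normalization or any 1 sample left out 0 of the 5 were called.

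The mRNAs most like the members over the 6 samples were named by their Pearson's r with the mean of the 5 standardised profiles. Of the 10 named mRNAs with the highest r, 9 are given here, namely PEX7, EMC3, PDHX, RTN4, CPOX, PDSS1, MFSD11, CIB1 and MTSS1, with r from 0.995 to 0.997. PEX7, an import receptor of peroxisomes, was at 18.2, 26.7 and 16.0 FPKM in white and at 6.27, 6.69 and 7.77 FPKM in black skin, a log2 difference of 1.46. CPOX, an enzyme of heme synthesis, had a log2 difference of 1.57 and PDSS1, which builds the side chain of ubiquinone, one of 3.26. Of the 9, 8 were called higher in white skin, and CIB1, with a log2 difference of 0.91, was not. An r above 0.95 was found for 263 of the other 14895 mRNAs (1.77%), and with 6 samples in 2 skins such values are descriptions.

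None of the measured genes next to the members on the chromosome was called. Counting RefSeq genes inside the wider assembled locus of a member gave 7 that were measured, namely ARPIN and ZNF710 at IDH2, NOP56 at IDH3B, FUOM at ECHS1, and PPP4C, TBX6 and YPEL3 at ALDOA. By limma 0 of the 7 were called, and their log2 differences ran from -0.99 for ZNF710 to 0.36 for FUOM. The RefSeq spans of IDH3B and NOP56 share 12 bases, and NOP56, a ribosome assembly factor, had a log2 difference of -0.20 (SE 0.25). The span of ALDOA shares 495 bases with a RefSeq gene that was not measured here under a matching name. Within 100 kb of a member lay 4 lncRNAs, 1 at IDH2 and 3 at ECHS1. By limma 0 of the 4 were called and 0 had an unadjusted p below 0.05, against 1.33% called among all 7566 lncRNAs.

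Smooth muscle markers moved with the members. Of 10 markers, 9 were called higher in white skin and 0 lower, ACTA2 being the one that did not pass, with a median log2 difference of 2.35. MYH11, the smooth muscle myosin, was at 692, 1248 and 568 FPKM in white and at 52.6, 140 and 242 FPKM in black skin. CNN1, calponin, rose 9.11-fold and TAGLN, transgelin, 3.55-fold. The summed level of the 10 markers was 5709 to 8493 FPKM in white and 602 to 1874 FPKM in black skin, with an exact two-sided permutation p of 0.1, the smallest that 3 against 3 samples can give. White skin of pig 2 was the highest of the white samples in 9 of the 10, as it was for the members. Among black samples the order did not match, since the smooth muscle sum was lowest in pig 1 at 602 FPKM while 4 of the 5 members were lowest in pig 2. With quantile normalization 5 of the 10 were called, and without white skin of pig 2 the count was 2 with a median of 2.13. Their part in the members' difference was not tested.

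For skeletal muscle, 15 of 30 listed markers were found under their names, and the main myosin heavy chains, titin and myoglobin were not among them. Of the 15, 3 were called higher in white skin and 1 lower, or 1 and 0 without white skin of pig 2. CKM, the muscle creatine kinase, was at 45.8, 66.2 and 28.0 FPKM in white and at 1.40, 2.28 and 4.66 FPKM in black skin. PYGM, muscle glycogen phosphorylase, rose 9.83-fold and TNNC1, the slow and cardiac troponin C, 3.64-fold. CA3, a carbonic anhydrase of muscle and fat, went the other way, at 4.52 ± 1.94 FPKM in white and 24.6 ± 7.27 FPKM in black skin.

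The level of the myosins, titin and nebulin could not be given, and the other genes of contraction differed in level. TNNI2, the fast troponin I, was at 1.63 to 2.08 FPKM in white and 1.77 to 13.8 FPKM in black skin, and TCAP, a titin-binding protein, at 4.36 to 6.49 and 6.50 to 14.6 FPKM. ACTA1, the skeletal actin, was at 1.77 FPKM at most, ATP2A1, the fast calcium pump, at 0.555 FPKM at most, TNNT1, the slow troponin T, at 0.779 FPKM at most, and SLN, a regulator of the pump, was listed at 0 in 2 samples. The summed level of the 15 markers was 95.9 to 140 FPKM in white and 50.9 to 66.1 FPKM in black skin (exact permutation p = 0.1, two-sided). That sum leaned on a few genes. CKM, PYGM and TNNC1 averaged 46.7, 21.6 and 22.5 FPKM in white skin, where the sum averaged 110.8 FPKM. The log2 difference was above 0 in 9 of the 15 markers and below 0 in 6. The part of this list in the members' difference was not tested.

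Most fat cell markers moved the opposite way from the members. The log2 difference was below 0 in 13 of the 14 found and above 0 in 1, PPARG, at 0.34 (SE 0.58). Of the 14 markers found, 0 were called higher in white skin and 7 lower, or 9 with the pig as a block, and the median log2 difference was -2.10. FABP4, the fatty acid binding protein of fat cells, was at 242, 96.9 and 409 FPKM in white and at 1319, 650.0 and 1353 FPKM in black skin. ADIPOQ, adiponectin, had a log2 difference of -2.30 and LPL, lipoprotein lipase, was 4.21-fold higher in black skin. In 10 of the 14 the white samples all lay below the black ones, as in 25.7% of all mRNAs. PNPLA2, a triglyceride lipase of many tissues, had a log2 difference of -0.48 and did not pass. The sum of the list was 395 to 883 FPKM in white and 1472 to 2977 FPKM in black skin (exact permutation p = 0.1, two-sided). White skin of pig 2, where the members were highest, was the lowest of the white samples for 10 of the 14 markers. With upper-quartile scaling 3 of the 14 were called lower, and without white skin of pig 2 the count was 0 with a median of -1.67. No marker of this list was at 0 in any sample. Its part in the members' difference was not tested.

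**Figure D4:**
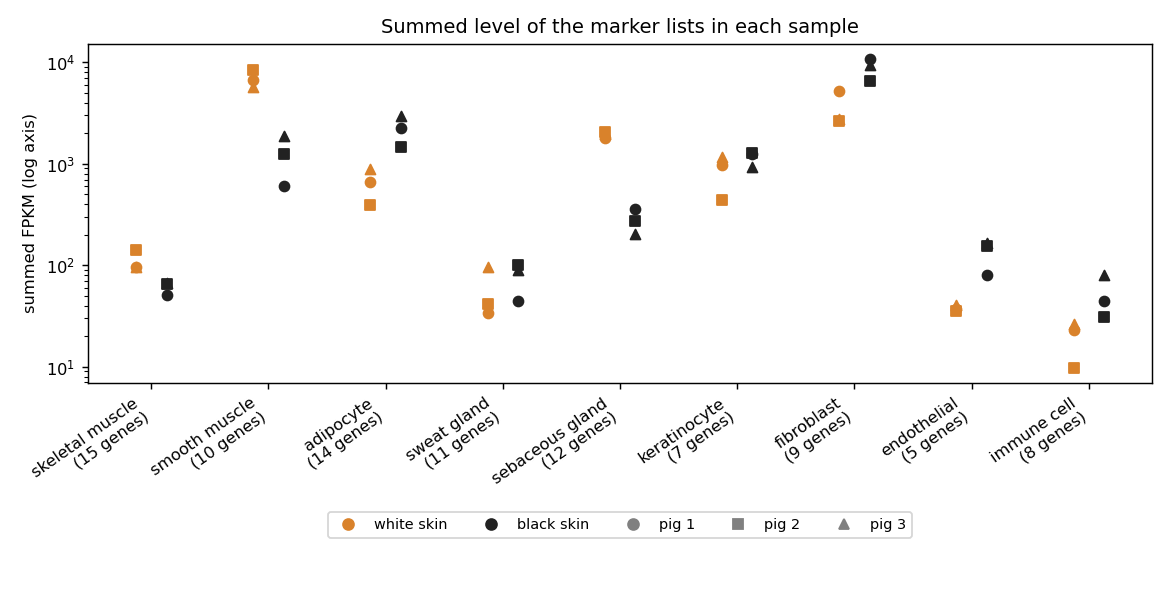
Summed FPKM (log axis) of each marker list in each sample, with color for skin and symbol for pig. Skeletal muscle, smooth muscle and sebaceous lists lie higher and adipocyte, fibroblast, endothelial and immune lists lie lower in white skin without overlap, while sweat gland and keratinocyte lists overlap.

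Some sebaceous gland markers were higher in white skin as well. Of 12 markers found, 4 were called higher and 0 lower, with a median of 1.09. Without white skin of pig 3 the count was 3 and the median was 0.84. ELOVL3, a fatty acid elongase, MC5R, a melanocortin receptor of the gland, and SOAT1, a sterol acyltransferase, had log2 differences of -2.07, -0.9999 and -0.76 and did not pass. MGST1, a glutathione transferase abundant in sebaceous cells, was at 1007, 1086 and 983 FPKM in white and at 210, 146 and 153 FPKM in black skin, and KRT79, a keratin of the gland duct, rose 10.4-fold. The summed level was 1806 to 2043 FPKM in white and 204 to 363 FPKM in black skin (exact permutation p = 0.1, two-sided). In white skin of pig 3 the sum held 363 FPKM of 1 desaturase marker, which was at most at 9.60 FPKM in the other samples. ALOX15B, a lipoxygenase of the gland, was at 280, 346 and 55.7 FPKM in white skin and at most at 9.60 FPKM in black skin. The sum did not follow the members among black samples, where it was lowest in pig 3 and the members mostly in pig 2. Of the 12 markers, 2 were called without white skin of pig 2.

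Of 10 measured lipogenesis genes, 2 were called higher and 0 lower. The count was 1 without white skin of pig 2, and with the pig as a block MLXIPL, a glucose-responsive transcription factor, was called lower, at a log2 difference of -1.40. The genes called higher were SCD, the desaturase, at 7493 ± 2518 FPKM in white and 1153 ± 285 FPKM in black skin, and GPAM, the first acyltransferase of triglyceride synthesis, which rose 18.3-fold. FASN, fatty acid synthase, had a log2 difference of 0.96 and did not pass.

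The remaining lists did not rise with the members. Fibroblast markers summed to 2649 to 5227 FPKM in white and 6487 to 10700 FPKM in black skin, with 2 of 9 called lower in white skin, among them DCN, decorin, at a log2 difference of -1.56. Endothelial markers were called lower in 3 of 5 and immune markers in 1 of 8 genes. With the pig as a block, 4 fibroblast, 4 endothelial and 4 immune markers were called lower, and without white skin of pig 2 the count was 0 in each of these lists. Upper-quartile scaling and quantile normalization each gave 1 endothelial and 0 immune markers. Of 11 sweat gland and 7 keratinocyte markers, 0 were called by limma in either direction, except that LTF, lactoferrin, was called lower with the pig as a block, at a log2 difference of -1.64. The summed levels of both lists overlapped between skins (exact permutation p = 0.4 and 0.3, two-sided). The part of these lists in the members' difference was not tested.

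**Figure D5:**
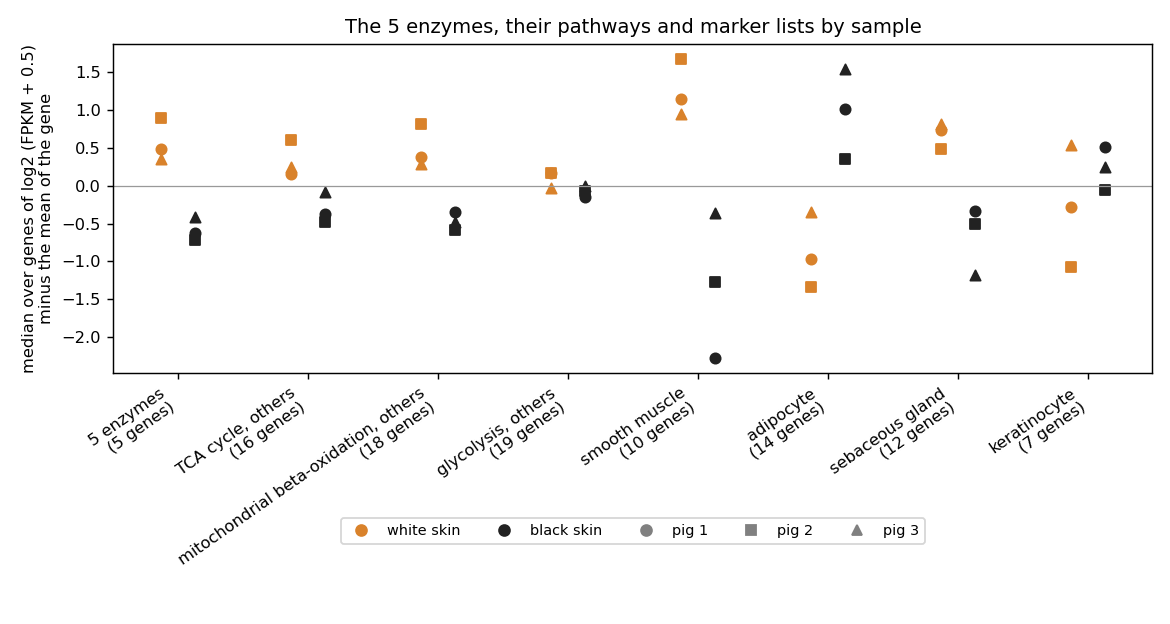
Median over the genes of a set of log2(FPKM + 0.5) minus the mean of the gene (vertical axis, log2 units) in each sample, for the members, their pathways and 4 marker lists. The members stand at 0.35 to 0.89 in white and -0.71 to -0.42 in black skin, the other beta-oxidation genes at 0.29 to 0.81 and -0.58 to -0.35, and the other glycolysis genes between -0.14 and 0.17 in all samples.

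Sample by sample, the members, the other TCA cycle genes and the other beta-oxidation genes shared their extremes. Their medians were highest in white skin of pig 2 and lowest in black skin of pig 2, as the plot of set medians by sample shows, while the order of pigs 1 and 3 differed between the sets. The other TCA cycle genes stood at 0.16 to 0.61 in white and -0.48 to -0.08 in black skin, a smaller distance than that of the members. The medians of the other glycolysis genes overlapped between the skins and differed least.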

How the data were processed

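Per the submitters' processing notes, CASAVA 1.8.2, HISAT2 2.0.4, StringTie 1.3.3 and Cufflinks 2.2.1 were used, while the study's methods name TopHat as the aligner. The authors deposited FPKM per mRNA and lncRNA and sample, which correct for transcript length and library size, and kept mRNAs above 0.5 FPKM and lncRNAs above 0.1 FPKM in at least 1 sample. The files hold no counts, so the depth behind a value is unknown, and no counting interval is given. The 6 samples count as 3 per skin.

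The mRNA values were fitted as log2(FPKM + 0.5), and those of lncRNAs as log2(FPKM + 0.1), in limma 3.58.1 (R 4.3.3) with trend, white minus black, and Benjamini-Hochberg adjustment over all 14900 mRNAs or 7566 lncRNAs. Fold changes on this scale understate those of low genes. A gene was called where the adjusted p was below 0.05 and the log2 difference was beyond 1 in size. The fit was tested on simulated data. Sums, and ratios that hold no member, were compared by exact two-sided permutation tests. Figures were drawn with matplotlib 3.10.9.

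Symbols came from an Ensembl gene name table (12236 mRNAs) and the study's lists (183 more), 83.3% of mRNAs in all. Gene positions are RefSeq's in Sscrofa11.1. Named genes are the 5 members, up to 6 genes per list with the highest mean FPKM, the 10 mRNAs most like the members, neighbours, and partner subunits or isoforms of the members. The others were named after their values were seen. A few genes that this rule names, or that were called, are not reported here by name, though the counts include them. The members and the 20 lists were chosen with earlier results of these data known. No sequences were used here.

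Sample titles give both skins of a pig the same number. Deviations from the group means correlated at 0.208, 0.360 and 0.204 within pigs 1, 2 and 3, and at -0.31 to 0.12 between skins of different pigs. With 3 samples per skin the deviations depend on each other, so these values do not test the pairing, which rests on the titles. Blocking on the pig was an alternative. The others were pseudocounts of 0.1 and 1, upper-quartile and quantile scaling, no trend, a mean of at least 1 FPKM, unadjusted p values and leaving out each sample.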

Additional observations from a re-analysis of the deposited data

How the results depend on the processing

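The members' log2 differences stayed above 0 under every alternative run, at 0.86 to 1.59 without 1 sample and at 0.91 to 1.72 otherwise, with the median of the 5 at 1.11 to 1.24 and 1.08 to 1.41. Calls depended on single samples. Leaving out 1 sample gave 35 to 847 called mRNAs (28 to 297 higher in white), 0 to 3 called members and 3 to 10 of the 53 other pathway genes, the lowest without white skin of pig 2. With the pig as a block 1439 mRNAs and 4 members were called, and ALDOC, PCK1, MLXIPL and LTF gained a call. Unadjusted p values gave 2288 mRNAs, 655 of them higher. Quantile normalization gave 3 members, without ECHS1 and ALDOA. Upper-quartile scaling moved the median of all mRNAs to -0.12 and quantile normalization to -0.03.

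Log2 differences that turned sign without 1 sample were those of DLAT (-0.035 to 0.20), ENO1 (-0.17 to 0.24), PKM (-0.13 to 0.13), FUOM (-0.011 to 0.65) and PPP4C (-0.31 to 0.063). With quantile normalization ENO1 was at -0.23 and ARPIN at 0.020, and with upper-quartile scaling PKM was at 0.21, NOP56 at 0.029 and PPP4C at 0.068. Of the 96 log2 differences of named genes, 12 to 40 lost a call in the same direction without 1 sample, most without white skin of pig 2, and at most 7 did under any other alternative. None of the genes that turned sign was called, and the cause was not tested. Depth limits cannot be given, since the files hold no counts. Color and site cannot be told apart, and 3 pigs limit every comparison.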
